A study of Mus musculus with 3 samples.

Results

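Oxymatrine-treated mouse plasmacytoid dendritic cells were compared with control cells of the same kind, gene by gene, as the log2 level in the oxymatrine array minus the log2 level in the control array. A gene was represented by its brightest probe set (by the mean over all 3 arrays of the series). It was kept when that mean was at least the 95th percentile of the genes for smell and pheromone receptors (Olfr and Vmn), which blood cells normally do not use. That background level was a log2 level of 5.28, and 10671 of 19505 genes were kept. Of these, 5626 genes had a mean log2 level of 9 or more and are called bright. At the edge of the filter, Fam241b (log2 levels of 5.01, 5.41 and 5.41 in the control, astragaloside IV and oxymatrine arrays) and Dhrs2 (4.98, 5.42 and 5.43) were just inside. Vsig8 (5.23, 5.23 and 5.37) and Gpr161 (5.32, 5.32 and 5.20) were just outside.

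Plasmacytoid dendritic cells are blood cells that sense viral nucleic acids through endosomal Toll-like receptors and release large amounts of type I interferon. Once matured they carry the chemokine receptor CCR7, which leads dendritic cells towards its ligands CCL19 and CCL21 in lymph nodes through Gi proteins and phosphoinositide 3-kinase. Oxymatrine is a quinolizidine alkaloid N-oxide of Sophora root, and the series asks how natural compounds act on the migration of these cells.

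The cells were wild-type and came from the marrow of leg bones of 4- to 5-week-old BALB/c males, grown for 6 to 9 days in medium with 100 ng/mL Flt3 ligand. All 3 groups were matured with CpG oligodeoxynucleotides, which act on TLR9, and sorted. The oxymatrine group had oxymatrine for 12 h and then CCL21 for 1 h, the astragaloside IV group had that saponin of Astragalus root for the same times, and the control group is labelled only as control. The labels give no dose. Their protocol text, the same for all 3 samples, names CCL21 only as the step after a compound and does not say whether control cells had it or a vehicle. If they did not, oxymatrine and the CCL21 step cannot be told apart. Each group is 1 array, and whether marrow of several mice was pooled is not stated. There was therefore no replicate check of any difference, no test was made, and the sizes below describe 1 pair of arrays. In bulk RNA of this kind, fewer cells of a type and less RNA per cell cannot be told apart.

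Of 15 measured marker genes of plasmacytoid dendritic cells, 13 were above background, among them Siglech, Tcf4, Irf8, Tlr7 and Tlr9, and Pacsin1 and Cd209d were not. With oxymatrine 9 of the 13 were lower, 2 higher and 2 equal, their median difference was -0.02, and the summed linear level of the 15 was 145862 in the control, 134928 after astragaloside IV and 128404 after oxymatrine, a difference from control of -12.0%. Without Ptprc, the leukocyte antigen CD45 that other blood cells also carry, the sum differed by -5.35%. That remainder was mostly Irf7, the brightest marker left, at 15.05 in the control and 14.84 after oxymatrine. Tcf4, Irf8, Tlr7, Tlr9, Bst2 and Siglech were within 0.03 of control. The dimmer Spib (-0.48), Ccr9 (-0.32) and Ly6d (-0.30) were lower. Defining markers of other cells were below background in part: Xcr1 and Clec9a of conventional type 1 dendritic cells and Cd3d, Cd3e and Cd3g of T cells. Others were bright. All 7 measured monocyte and macrophage markers passed, among them Adgre1 (mean log2 level 14.08), Lyz2 (13.88) and Csf1r (12.85), beside 9.00 for Siglech. Sirpa (14.90), listed for type 2 dendritic cells, was bright too, as was Kit (13.46), the 1 of 5 mast cell markers that passed. Of 7 type 1 dendritic cell markers that passed, 5 were lower, with a median of -0.24 and a difference of the sum of -6.64%. For T and NK cells 3 markers passed the background level, 2 of them lower, with a difference of the sum of -23.3%. The lower ones were Cd5 (-0.45) and Il2rb (-0.84), and Gzma was equal. For neutrophils 2 of 3 were lower, with -15.3%. That sum was mostly Lcn2, at 13.21 in the control and 12.94 after oxymatrine, while S100a8, S100a9, Elane, Mpo and Ngp were below background. The sums differed by -3.45% for type 2 dendritic cell, -0.301% for monocyte and macrophage and 4.67% for B cell markers. The part of these cell types in the results below was not tested.

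In the deposited values a small downward skew ran through the bright genes, and it depended on the scaling. Of all 10671 genes 46.0% were lower with oxymatrine and 29.7% were higher, while 24.4% were exactly equal. Median polish over 3 arrays can return the same value for some arrays, but its part in these ties was not tested. Identical values between arrays are thus common in these data. The median difference was 0 and the mean -0.04. Among bright genes 2826 (50.2%) were lower, 1560 (27.7%) higher and 1240 equal. Their median was -0.0011 and their mean -0.05, with a central 95% from -0.44 to 0.29. Differences narrowed with level: their SD over genes was 0.31 in the dimmest 10% of genes and 0.12 in the brightest 10%, where no gene was 1.5-fold apart. The split of all genes depended on the scaling, since equal genes take the sign of any shift. It was 74.6% lower and 25.4% higher after centring each array on its median, 42.3% and 57.3% after a further quantile normalisation, and 44.5% and 55.5% after lowess centring. The median of bright genes was then -0.03, 0.03 and 0.03 in the same order, and their mean -0.07, 0.0005 and -0.01. Differences of a few hundredths, in single genes or families, therefore have no settled direction, and directions below are those of the deposited values. In a family whose median is within 0.05 of 0, the balance of lower and higher members can turn with the scaling.

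Control probe sets of the array also differed between this pair. The 1324 named as positive controls differed by a median of -0.09, the 5222 named as negative controls by 0.13, and 7 of 8 bacterial and phage controls were lower with a median of -0.17. Their part in the skew was not tested.

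Among families of at least 10 members, the histone genes and the genes of complexes II and III of the respiratory chain had the lowest medians in the oxymatrine array against control, -0.22 and -0.21. Their order depends on the summary: the means were -0.23 in both families, and the medians over all measured members were -0.16 and -0.20. Histones are the proteins around which DNA is wound, and most of their genes are replication-dependent: they lie in clusters, are switched on in S phase and give messages that end in a stem-loop, with no poly(A) tail. Of 62 histone genes above background, out of 86 measured, 53 were lower with oxymatrine, 2 were higher and 7 were equal, and the median log2 difference was -0.22. A difference of at least 1.15-fold downwards was found in 34 of the 62, against 17.4% of all genes, and one of at least 1.15-fold upwards in none of them, against 9.80% of all genes. The median was below 0 under every scaling, at -0.25 after median centring, -0.18 after quantile normalisation and -0.19 after lowess centring.

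**Figure D1:**
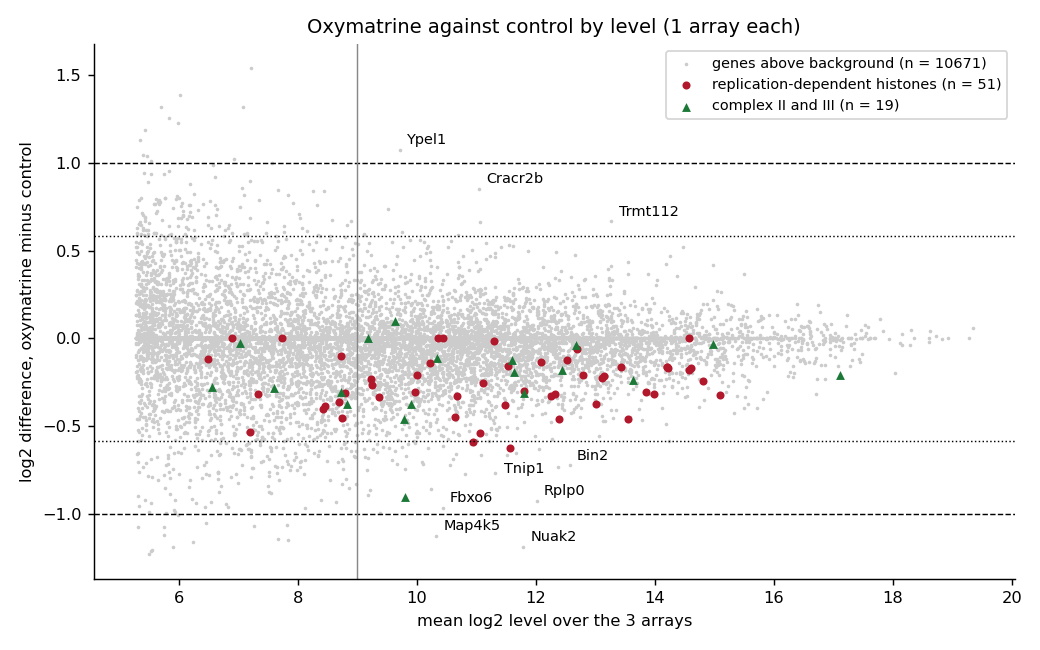
Each point is 1 gene above background, with its mean log2 level over the 3 arrays on the x axis and its log2 difference, oxymatrine minus control, on the y axis. Dashed lines mark 2-fold and dotted lines 1.5-fold differences, the vertical line marks the level of 9 from which genes are called bright, and all 51 replication-dependent histone genes, in red, lie at or below 0.

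The low values lay mostly in the replication-dependent genes, taken here by their current symbols. Of these 51 genes, 46 were lower, none was higher and 5 were equal, with 32 lower by at least 1.15-fold and a median of -0.25. The median log2 level of the 51 was 11.59 in the control, 11.53 after astragaloside IV and 11.27 after oxymatrine. These medians were taken array by array and fall on different genes, so their gaps are not gene-wise differences. Gene by gene, the median against control was -0.21 after astragaloside IV and -0.25 after oxymatrine, with 46 genes lower in each. Each histone type lay low: 4 of 4 linker H1 genes were lower (median -0.38), 11 of 13 H2A genes (-0.23), 13 of 14 H2B genes (-0.26), 8 of 9 H3 genes (-0.17) and 10 of 11 H4 genes (-0.24). Among the 40 bright genes of this class 37 were lower and the median was -0.23. The median of the class was -0.28 after median centring, -0.21 after quantile normalisation and -0.22 after lowess centring. Genes of this class are close copies of one another, and probes can bind messages of several, so the 51 values are not independent and a value cannot be assigned to 1 gene with certainty. H3c14 and H3c15 had identical values in all arrays, which leaves 50 distinct ones.

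The lowest of the bright histone genes by difference was the H2B gene H2bc15, at a log2 level of 11.90 in the control, 11.53 after astragaloside IV and 11.27 after oxymatrine, a difference of -0.62. In the same order H2bc7 was at 11.33, 10.77 and 10.73 and H2bc11 at 11.22, 11.30 and 10.68. For H2bc11 the oxymatrine array was low while the other two lay close together, and for H2bc7 both treated arrays were low. The H4 gene H4c18 was at 13.85 in the control, 13.44 after astragaloside IV and 13.39 after oxymatrine, and the H3 gene H3c11 was at 12.68, 12.29 and 12.22 in that order. H2ac22, an H2A gene, was at 15.27, 15.08 and 14.95. In each of these, chosen after their values were seen, the oxymatrine array held the lowest of the 3 values. Elsewhere the astragaloside IV array was lowest, as for H4c6 (12.54, 12.01 and 12.22 in that order) and H3c8 (10.25, 9.74 and 9.94). The 9 H3 genes had a median of -0.27 against control after astragaloside IV and -0.17 after oxymatrine. The largest difference of a linker gene was that of H1f3, -0.54, from a control level of 7.73, below the bright range. After astragaloside IV H1f3 differed from control by -1.06. The 5 genes with equal values included the H4 gene H4c8 and the H3 gene H3c3.

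Histone genes outside this class, many of them for variants made throughout the cell cycle, had a smaller median difference. Among the 11 others above background 7 lay lower, 2 higher and 2 level, the median being -0.03, and 2 were lower by at least 1.15-fold. These 11 include H4f16 (-0.33) and H4bc24 (0.00), which RefSeq lists under the older names of clustered H4 and H2B genes. With both moved to the clustered genes, 47 of 53 were lower and 6 equal with a median of -0.25, and of the 9 left 6 lay lower, 2 higher and 1 level with a median of -0.03. H2az1, the H2A.Z variant found at gene starts, was at 16.12 in the control, 16.22 after astragaloside IV and 16.22 after oxymatrine, so that both treated arrays were above control. H3f3b, a gene for the replacement histone H3.3, was at 15.10, 15.16 and 15.13 in that order, while H3f3a, which encodes the same protein, was at 14.09, 14.02 and 13.86. H2ax, the variant phosphorylated at DNA breaks, differed by -0.03. With 1 array a group the gap between the class medians, -0.25 and -0.03, has no test.

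The array with astragaloside IV shares the control array with this comparison. In it, the replication-dependent histone genes had a median of -0.21 against control, with 46 lower and 1 higher, so the oxymatrine array was not alone below control. The other histone genes had a median of 0 there.

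**Figure D2:**
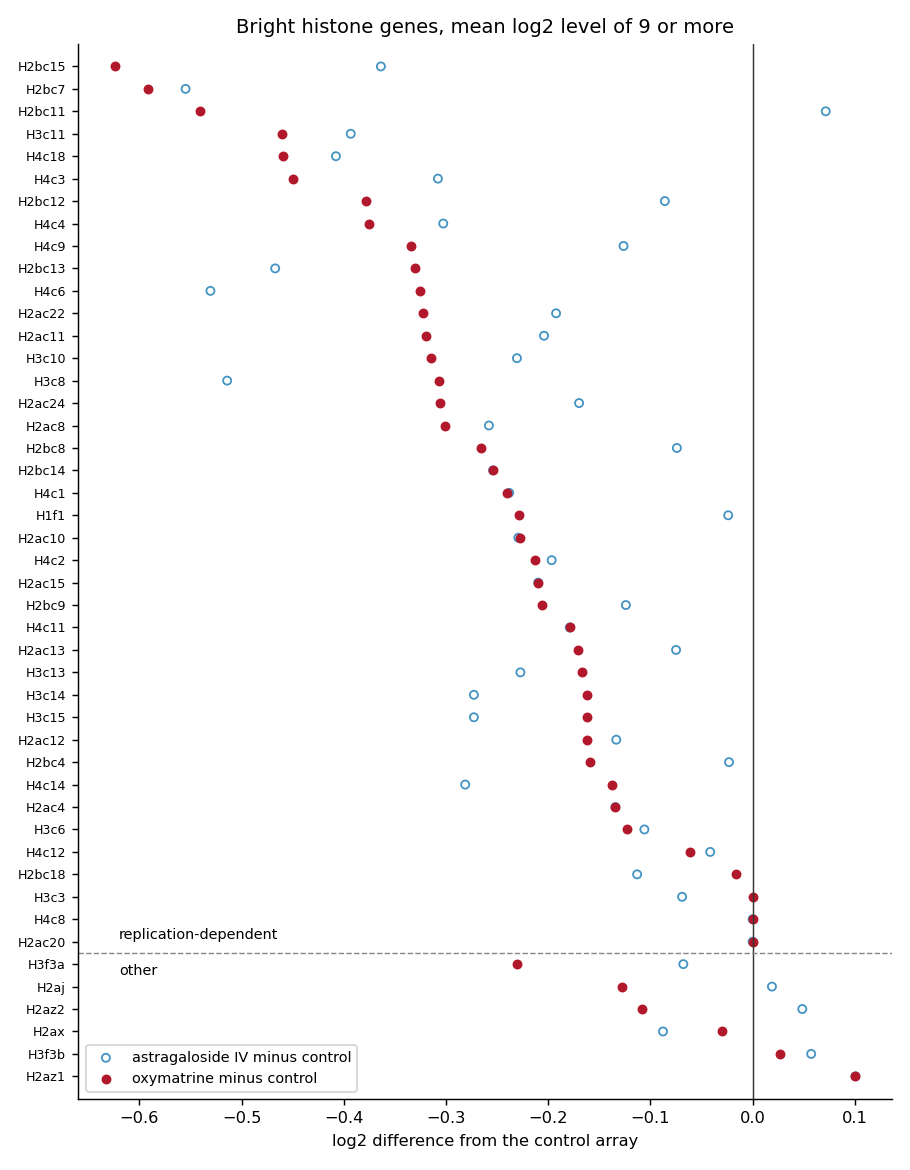
Bright histone genes, a row each, with the log2 difference from the control array on the x axis, for oxymatrine (filled) and astragaloside IV (open). Above the dashed line stand the 40 replication-dependent genes, of which 37 were lower with oxymatrine and 3 equal to control, and below it the bright genes of the other histones, of which H2az1 and H3f3b lie above 0.

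The promoters of these genes are shown because the genes were lower together. RefSeq promoter windows of 300 bases on GRCm38.p6, 250 before to 50 after the start, were matched for 47 of the 51 replication-dependent genes, 41 of them on chromosome 13 and 6 on chromosome 3. Below are the gene with the lowest difference (H2bc15, chr13:21753826-21754125, plus strand), the next lowest (H2bc7, chr13:23574158-23574457, minus strand), 1 of its class with an octamer (H2bc12, chr13:22035571-22035870, plus strand), an H2B gene with an octamer and almost no difference (H2bc18, chr3:96269450-96269749, plus strand) and a variant gene that was higher (H2az1, chr3:137864237-137864536, plus strand). The genes were chosen after their values were seen. Capitals mark CCAAT and ATTTGCAT, the octamer, on either strand.
H2bc15: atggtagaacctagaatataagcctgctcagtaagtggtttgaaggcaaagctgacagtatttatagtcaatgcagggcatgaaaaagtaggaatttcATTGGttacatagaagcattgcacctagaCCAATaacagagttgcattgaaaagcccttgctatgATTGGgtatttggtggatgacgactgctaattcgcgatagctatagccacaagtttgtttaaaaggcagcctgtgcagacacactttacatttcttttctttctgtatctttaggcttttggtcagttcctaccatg
H2bc7: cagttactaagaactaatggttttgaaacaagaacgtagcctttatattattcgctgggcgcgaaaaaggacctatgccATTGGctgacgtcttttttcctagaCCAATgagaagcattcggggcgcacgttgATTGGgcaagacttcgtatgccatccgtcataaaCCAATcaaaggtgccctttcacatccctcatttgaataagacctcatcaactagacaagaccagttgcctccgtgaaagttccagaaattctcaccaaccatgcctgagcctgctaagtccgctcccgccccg
H2bc12: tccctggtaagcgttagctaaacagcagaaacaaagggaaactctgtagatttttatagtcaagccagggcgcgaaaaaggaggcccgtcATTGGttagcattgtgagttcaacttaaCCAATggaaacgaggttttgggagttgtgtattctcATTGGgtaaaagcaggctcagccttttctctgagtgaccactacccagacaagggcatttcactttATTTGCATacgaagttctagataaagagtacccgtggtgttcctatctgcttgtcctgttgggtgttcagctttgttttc
H2bc18: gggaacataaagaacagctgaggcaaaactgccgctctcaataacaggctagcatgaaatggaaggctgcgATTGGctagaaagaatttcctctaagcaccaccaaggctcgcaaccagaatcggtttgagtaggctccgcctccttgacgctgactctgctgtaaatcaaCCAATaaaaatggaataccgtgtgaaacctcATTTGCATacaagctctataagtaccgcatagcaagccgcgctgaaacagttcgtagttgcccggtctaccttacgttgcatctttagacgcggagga
H2az1: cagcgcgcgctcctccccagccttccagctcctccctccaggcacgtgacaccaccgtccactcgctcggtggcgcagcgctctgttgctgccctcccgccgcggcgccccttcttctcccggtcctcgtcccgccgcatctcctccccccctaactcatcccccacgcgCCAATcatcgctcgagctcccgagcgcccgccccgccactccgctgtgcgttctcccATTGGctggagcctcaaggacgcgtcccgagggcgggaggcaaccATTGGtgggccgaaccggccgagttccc

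In these windows CCAAT, the letters bound by the factor NF-Y, occurred on either strand in 40 of 47 replication-dependent histone promoters (85.1%) and in 3791 of 8725 promoters (43.4%) of all genes above background. The octamer ATTTGCAT, which POU-domain factors such as Oct-1 bind and which H2B promoters are known for, occurred in 11 of 47 (23.4%) against 147 of 8725 (1.68%). All 11 were promoters of H2A and H2B genes, 44.0% of the 25 matched, and all 25 held CCAAT. The TATA box letters, TATAAA, were found in 27 of 47 (57.4%) against 829 of 8725 (9.50%). These shares describe the histone class and not the difference between arrays. The 11 genes with an octamer had a median difference of -0.25, and the 36 matched genes without it -0.31. Of the genes printed above, H2bc12 was at 11.64 in the control, 11.56 after astragaloside IV and 11.26 after oxymatrine, whereas H2bc18, also with an octamer, was at 11.35, 11.24 and 11.33 in that order. H2A and H2B genes often stand head to head, and 7 such pairs on chromosome 13 had overlapping windows, by 233 to 279 bases, with H4bc24 counted as an H2B gene by its older name. Both genes were lower in 6 of the 7 pairs, as in H2ac11 (-0.32) with H2bc11 (-0.54) and H2ac15 (-0.21) with H2bc15 (-0.62), while H2ac24 (-0.31) stood beside H4bc24 (0.00). With 11 of 13 H2A and 13 of 14 H2B genes of the class lower, this count says nothing about pairing.

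Other genes of the dividing cell lay nearer to control than the histones by their family medians, though single members were farther out. Their counts stand beside 46.0% lower and 29.7% higher over all genes. Centromere and kinetochore genes, which attach chromosomes to the spindle, were lower in 22 and higher in 7 of 36, with a median of -0.08, and were below 0 under each scaling. The kinetochore gene Nuf2 differed by -0.23, Zwint by -0.22 and the mitotic kinase gene Aurkb by -0.54. The MCM, ORC and GINS genes and their partners, which load and start the replication fork, were lower in 16 and higher in 6 of 26, and their median was -0.03, a direction that flips after quantile normalisation. Among them the clamp loader gene Rfc2 differed by -0.48, the helicase genes Mcm4 and Mcm5 by -0.35 and -0.31, and Rfc4 by 0.35. Spindle and cytokinesis genes were lower in 11 of 20, with a mean of -0.14 and a median of -0.03, which also flips after quantile normalisation. The lowest was Prc1 (-0.88), below the bright range, and Tpx2, a spindle assembly factor, was at -0.40 and Racgap1 at -0.39. Cyclin genes were 8 lower and 6 higher of 20, with a median of 0, and Ccna2, the S-phase cyclin, was at 9.92, 9.77 and 9.78 in the order control, astragaloside IV, oxymatrine. Of these sets of the dividing cell, none but the histones had a median 0.1 or more below 0. The transcription machinery showed small medians: RNA polymerase subunits had -0.03, with 14 of 25 lower, which flips after quantile normalisation, Mediator subunits 0, with 12 of 28 lower and 9 higher, and zinc finger Zfp genes 0, with 117 of 278 lower and 89 higher. Med25 (-0.54) and Med15 (0.37), both parts of Mediator, which joins activators to RNA polymerase II, lay on opposite sides.

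Single genes far from control were few. Of all genes 30 (0.281%) were 2-fold apart or more, 14 higher and 16 lower, and of the bright genes 3 (0.0533%): Nuak2, Map4k5 and Ypel1. At 1.5-fold, 46 bright genes were lower (0.818%) and 9 were higher (0.160%). That balance depended on the scaling, with 53 lower and 5 higher after median centring, 31 and 18 after quantile normalisation and 36 and 14 after lowess centring.

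Nuak2, an AMPK-related kinase, was at a log2 level of 12.25 in the control, 12.06 after astragaloside IV and 11.06 after oxymatrine, 2.28-fold lower than control. Map4k5, a kinase at the head of a MAP kinase cascade, was at 10.86, 10.39 and 9.73 in that order, with the astragaloside IV value between the other arrays. Entpd1, which encodes the ectonucleotidase CD39 that breaks down extracellular ATP, was at 9.74, 9.67 and 8.75. In Nuak2 and Entpd1 the control and astragaloside IV values lay within 0.2 of each other, well above the oxymatrine value. Fbxo6, a ubiquitin ligase subunit that recognises sugar chains, was at 10.79 in the control, 10.70 after astragaloside IV and 9.82 after oxymatrine, and Rplp0, a protein of the ribosomal stalk, was at 12.38, 12.22 and 11.46 in that order. Rxrb, the retinoid X receptor beta, was at 9.47, 9.47 and 8.58. Control and astragaloside IV values were identical for Rxrb and within 0.2 for the other pair of genes. The mRNA cap-scavenging gene Dcps was at 9.79 in the control, 8.93 after astragaloside IV and 8.93 after oxymatrine, so that both treated arrays gave the same value, and Nab1, a corepressor of EGR factors, was at 11.02, 10.36 and 10.30 in that order, also low in both.

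Rin3, an activator of Rab5 at early endosomes, was at 10.63 in the control, 10.33 after astragaloside IV and 9.77 after oxymatrine. Anxa7, an annexin, was at 11.68, 11.36 and 10.91 in that order, and Tpcn1, a cation channel of endosomes and lysosomes, at 9.48, 9.29 and 8.74. Bin2, a membrane-bending BAR domain protein of leukocytes, was at 12.91 in the control, 12.62 after astragaloside IV and 12.19 after oxymatrine. In these 4 genes the astragaloside IV value lay between the others. The transcription factor gene Runx3, which acts in dendritic cell and lymphocyte development, was at 11.13, 10.93 and 10.36 in that order, and Fkbp2, an FK506-binding protein of the endoplasmic reticulum, at 10.15, 9.84 and 9.40. Tnip1, which restrains NF-kB together with A20, was at 12.62 in the control, 12.63 after astragaloside IV and 11.88 after oxymatrine, low in the oxymatrine array alone.

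On the higher side, Ypel1, of the Yippee-like family, was at 9.01 in the control, 10.05 after astragaloside IV and 10.08 after oxymatrine, 2.11-fold above control and level with the other treated array. Cracr2b, a calcium-binding regulator of store-operated calcium entry, was at 10.70, 10.88 and 11.55 in the same order. Tprkb, a subunit of the KEOPS complex that modifies tRNA, was at 9.22, 9.38 and 9.96. For both genes the control and astragaloside IV values were the near pair. Trmt112, the partner that activates methyltransferases of tRNA, ribosomal RNA and release factors, was at 12.86 in the control, 13.42 after astragaloside IV and 13.53 after oxymatrine, higher in both treated arrays. Slc20a1, a phosphate transporter, was at 10.76, 11.00 and 11.42, and the DNA helicase gene Recql at 9.53, 9.59 and 10.14. Gas8, of the ciliary dynein regulatory complex, was at 8.74, 9.28 and 9.33, again level in both treated arrays. Ebpl differed by 0.59 and Vcpkmt, which methylates the ATPase VCP, by 0.59. Below 1.5-fold followed Slc41a2 (0.56), a magnesium transporter, Ptdss2 (0.56), which makes phosphatidylserine, Rc3h2 (0.56), a Roquin protein that destabilises immune messages, Idh2 (0.55), the mitochondrial isocitrate dehydrogenase, Malt1 (0.55), the paracaspase of NF-kB signalling, Rrp9 (0.55), a U3 snoRNP protein, and Tmem63a (0.54), a mechanically gated ion channel.

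**Figure D3:**
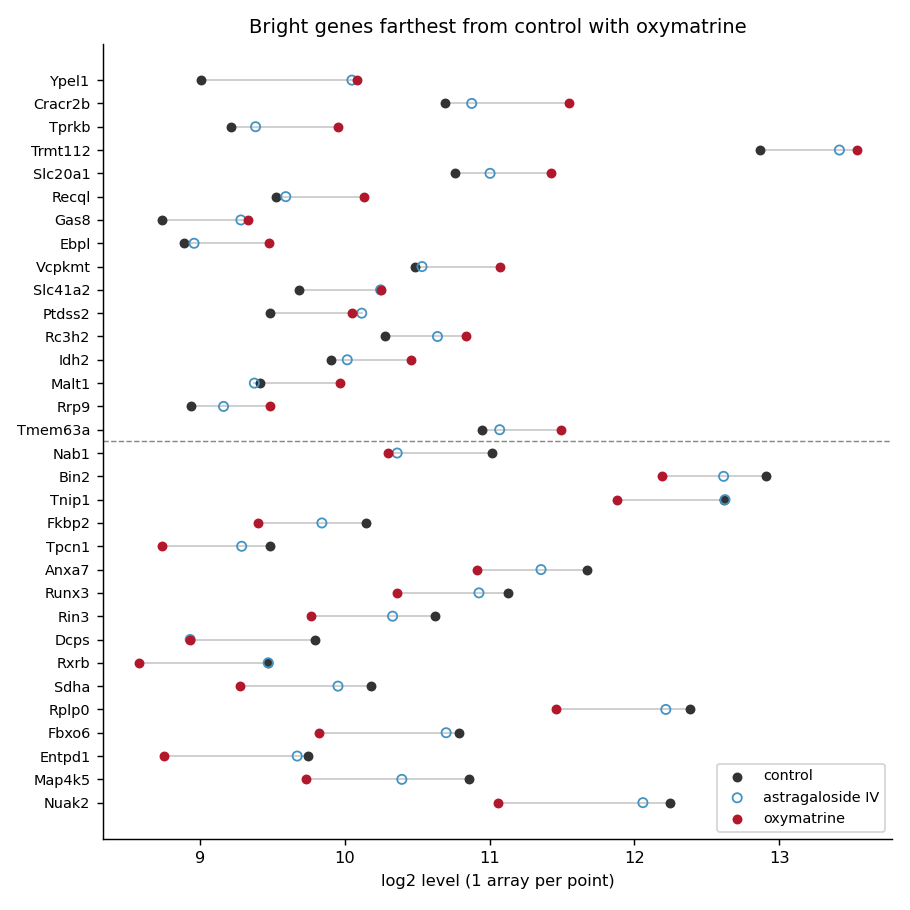
Log2 levels in the control (black), astragaloside IV (open blue) and oxymatrine (red) arrays for the 16 bright genes with the highest and the 16 with the lowest difference from control, a row each, 1 array per point. In Nuak2, Rxrb and Tnip1 the red point stands alone on the left, and in Ypel1, Gas8 and Dcps both treated points lie together.

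The respiratory chain passes electrons from NADH (complex I) or succinate (complex II) through complex III to complex IV, and ATP synthase uses the proton gradient they build. Of 19 genes for subunits and assembly factors of complexes II and III above background, 17 were lower with oxymatrine, 1 was higher and 1 equal. Their median was -0.21, and 10 of 19 were lower by at least 1.15-fold, set against 17.4% of all genes. The median was -0.23, -0.17 and -0.18 after median centring, quantile normalisation and lowess centring. In the astragaloside IV array the same 19 genes had a median of -0.04 against the same control.

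Sdha, the catalytic subunit of succinate dehydrogenase, was at 10.18 in the control, 9.95 after astragaloside IV and 9.28 after oxymatrine, a difference of -0.90. Sdhb, its iron-sulphur subunit, was at 13.78, 13.56 and 13.55 in that order, while the membrane anchors Sdhc (9.19, 9.19 and 9.19) and Sdhd (12.69, 12.69 and 12.65) were close to control. Within complex II the low values were thus those of the catalytic part, and Sdhaf2, which inserts the flavin into Sdha, differed by -0.31. In complex III the core subunit gene Uqcrc2 was at 10.09 in the control, 9.63 after astragaloside IV and 9.63 after oxymatrine and the small subunit gene Uqcr10 at 10.01, 10.04 and 9.64 in that order. Cyc1, the cytochrome c1 gene, differed by -0.30, Uqcrb by -0.21 and the assembly factor gene Uqcc1 by -0.37. The assembly factor gene Uqcc3 was the 1 member above control, at 9.49, 9.82 and 9.59.

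The neighbouring complexes had medians close to 0, beside shares of 46.0% lower and 29.7% higher over all genes. Complex I subunit genes were lower in 21 and higher in 9 of 35, with a median of -0.02 that flips under quantile and lowess scaling. Ndufv2 (-0.47) and Ndufa2 (-0.45) were the lowest bright subunits and Ndufa3 (0.33) the highest. Complex I assembly factors went the other way in count, with 6 of 14 higher and 4 lower and a median of 0, led by Ndufaf4 (0.47) and Acad9 (0.31) among bright genes, while Ecsit, which also acts in Toll-like receptor signalling, differed by -0.68. Complex IV had 6 lower and 4 higher of 13 and ATP synthase 9 and 6 of 17, with Atp5e at -0.55 and Atp5pb at -0.47. In the tricarboxylic acid cycle 9 of 20 genes were lower and 6 higher: Idh2 was at 9.90 in the control, 10.02 after astragaloside IV and 10.46 after oxymatrine, the pyruvate dehydrogenase gene Pdhb differed by 0.32, and Suclg1 by -0.22. Import into mitochondria had 12 lower and 6 higher of 23, with the motor anchor Timm44 at 11.02 in the control, 10.47 after astragaloside IV and 10.33 after oxymatrine. The difference between the complexes has no test with 1 array a group, and only the set of complexes II and III counts assembly factors with its subunits.

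**Figure D4:**
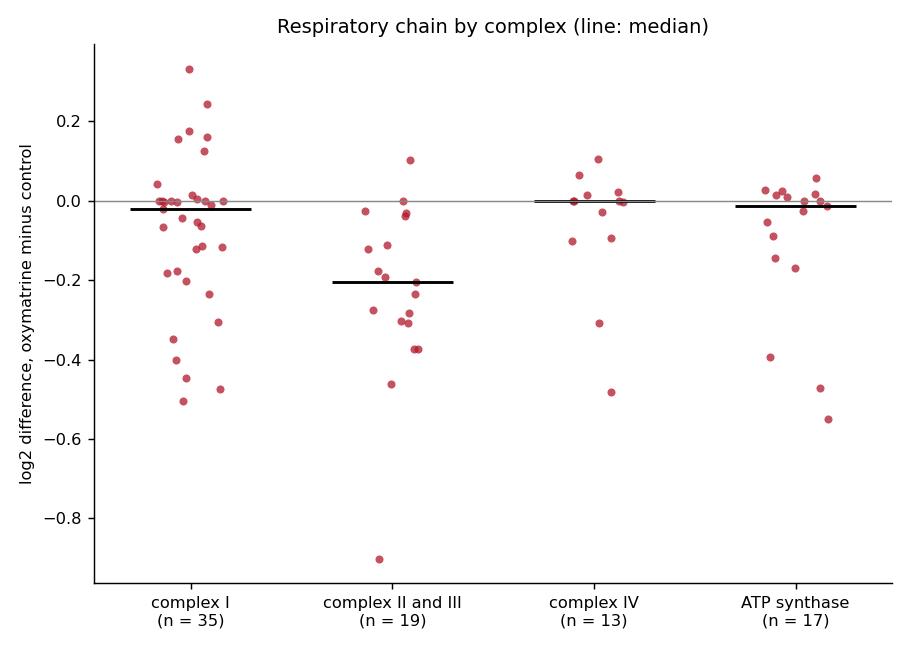
Log2 difference, oxymatrine minus control, for each subunit gene above background of complex I, complexes II and III together, complex IV and ATP synthase, with a line at the median. Assembly factors are included for complexes II and III only. Complexes II and III have their median at -0.21 and 17 of 19 genes below 0, while the medians of the others lie between -0.02 and 0.

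Genes of protein synthesis had medians within 0.06 of 0, against shares of 46.0% lower and 29.7% higher over all genes. Of 47 genes for translation initiation factors and their regulators 33 lay lower and 8 higher, the median being -0.06, which was below 0 under each scaling. Eif4ebp1, the 4E-BP1 repressor that mTOR switches off, was at 10.11 in the control, 9.93 after astragaloside IV and 9.44 after oxymatrine. Eif6, which keeps ribosomal subunits apart, was at 13.31, 13.11 and 12.75 in that order, whereas Eif1b was at 10.58, 10.58 and 10.99. These are a repressor, an anti-association factor and a scanning factor, so the members farthest out do not share 1 role. Ribosomal proteins had medians of -0.03 in both subunits, with 24 of 38 lower in the large and 15 of 24 in the small one, the latter flipping after quantile normalisation. Beside Rplp0 (-0.92), Rpl36al (-0.38) and Rplp1 (-0.23), another stalk protein, were the lowest of the large subunit, and Rps19 (14.05, 13.73 and 13.59 in that order) of the small one. Mitochondrial ribosomal proteins were 39 lower (52.7%) and 22 higher (29.7%) of 74, and aminoacyl-tRNA synthetases 17 and 5 of 31, with Farsa at -0.44 and Vars at -0.41.

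Of the routes of protein breakdown, autophagy lay lowest. Family counts here stand beside 46.0% lower and 29.7% higher over all genes. Of 26 autophagy genes, 17 lay lower, 4 higher and 5 level, with a median of -0.11. It was -0.14 after median centring, -0.04 after quantile normalisation and -0.08 after lowess centring. Ulk1, the kinase that starts autophagy, differed by -0.73 and its relative Ulk2 by -0.21. Atg5, part of the enzyme that attaches LC3 to membranes, was at 10.36 in the control, 10.59 after astragaloside IV and 9.93 after oxymatrine. Wipi2, which marks the forming autophagosome, was at 10.59, 10.22 and 10.19 in that order, and Atg16l2 was at 9.62, 9.24 and 9.96, above control. The VPS genes, which sort cargo to endosomes and lysosomes, had 22 of 32 lower and 3 higher with a median of -0.07, below 0 under each scaling. Among them Vps33a (-0.48), Vps11 (-0.35) and Vps8 (-0.35) belong to the tethers that dock endosomes, and Vps35 (12.80, 12.73 and 12.40 in that order) and Vps26a (-0.28) to retromer, which returns receptors from endosomes. Vps13b differed by 0.09. Rab GTPases had 20 lower and 14 higher of 45 and sorting nexins 12 and 9 of 27, both with a median of 0, and Snx3 was the highest of the bright ones at 0.42.

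In the proteasome, with 41 of 44 genes bright, 25 (56.8%) were lower and 7 higher, beside 50.2% lower among all bright genes. None was 1.5-fold apart, and the proteasome median of -0.01 flips under quantile and lowess scaling. Psma3, a subunit of its core ring, was at 14.51 in the control, 14.30 after astragaloside IV and 13.92 after oxymatrine, Psma7 at 13.31, 13.17 and 12.87 in that order, and Psmc5, an ATPase of its regulatory cap, at 11.37, 11.34 and 10.92. Ubiquitin-specific proteases, which remove ubiquitin, had 25 of 41 lower and 9 higher, with a median of -0.07 that was below 0 under each scaling. Usp24 (-0.37) and Usp1 (-0.34) stood at the low end and Usp45 (0.35) and Usp48 (0.33) at the high end. Subunits of protein phosphatases 1 and 2A had 23 of 33 lower and 5 higher, a median of -0.07. Of 6 caspase genes 5 lay lower and 1 higher, the median being -0.21: Casp6, an executioner, was at 10.17 in the control, 9.78 after astragaloside IV and 9.78 after oxymatrine, Casp8, which death receptors activate, at 15.69, 15.60 and 15.45 in that order, and Casp2 at 10.01, 10.44 and 10.30, above control. A set of 6 genes describes little beyond those genes.

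The genes of migration, the subject of the study, lay mostly close to control, though bright chemoattractant receptors had a median of -0.10. Of a set of 16 genes for the chemotaxis of these cells, 15 were measured and above background. With oxymatrine 10 were lower, 3 higher and 2 equal, against 46.0% lower and 29.7% higher of all genes. Differences ran from -0.32 for Ccr9 to 0.08 for Itgb7. Downstream of the receptors, Gnai2, the main Gi subunit of leukocytes, was at 15.91 in the control, 15.84 after astragaloside IV and 15.90 after oxymatrine. Pik3cg, the catalytic subunit of PI3-kinase gamma, was at 13.36, 13.36 and 13.36 in that order, and Dock2, the exchange factor for Rac in lymphoid cells, at 13.12, 13.06 and 13.09. These 3 lay within 0.1 of control. Rac2 was at 15.17 in the control, 15.14 after astragaloside IV and 15.08 after oxymatrine and the actin regulator Coro1a at 14.00, 13.88 and 13.88 in that order. Cdc42, at a difference of -0.02, was close to control as well.

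The PI3-kinase gamma regulatory genes lay on opposite sides, Pik3r5 at 13.21 in the control, 13.12 after astragaloside IV and 12.85 after oxymatrine and Pik3r6, the dimmer, at 8.47, 8.30 and 8.84 in that order, and the whole family had 4 lower and 5 higher of 13. Arhgef1, an exchange factor that G12/13 proteins activate, was at 11.82 in the control, 11.55 after astragaloside IV and 11.16 after oxymatrine. Prex1, an exchange factor for Rac driven by PI3-kinase and G protein subunits, was at 13.79, 13.63 and 13.50 in that order, and Dock8, which dendritic cells need to move through tissue, was at 14.77, 14.71 and 14.96. Arhgef1 and Prex1 had the lowest value in the oxymatrine array and Dock8 the highest. The family of chemoattractant receptors had 15 lower, 4 higher and 9 equal of 28, with a median of -0.04, below 0 under each scaling, and P2ry6, a receptor for UDP, was its lowest bright member at 12.39, 12.26 and 12.03.

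The cytoskeleton had medians at or near 0, beside shares of 46.0% lower and 29.7% higher over all genes. The Arp2/3 and WAVE genes, which branch actin filaments, had 9 lower and 5 higher of 20, with Nckap1 at -0.27 and its blood cell form Nckap1l at 0.15. Actins and their binding proteins had 17 lower and 11 higher of 41, from Coro1b (-0.26) and Actn1 (-0.26) up to Tpm4 (0.14) and the cross-linker Flna (14.81, 14.92 and 15.23 in the same order of arrays). Integrin subunits had 6 lower and 7 higher of 18, dynein and dynactin 6 and 6 of 18, and formins 3 and 3 of 9, where Fmnl1 (-0.33) and Daam1 (0.32) were at the ends. Of the myosins 10 of 22 were lower and 6 higher, led downwards by the light chain kinase gene Mylk at 9.99 in the control, 9.89 after astragaloside IV and 9.37 after oxymatrine. Kinesins had 12 lower and 7 higher of 26, and Kif3a, a motor of kinesin-2, was at 9.76, 9.15 and 9.11 in that order, low in both treated arrays. The gamma-tubulin gene Tubg1, needed to start microtubules, was at 9.47, 9.66 and 8.87.

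Innate immune families likewise had medians within 0.06 of 0, with single members farther out. Over all genes the shares were 46.0% lower and 29.7% higher. Of 20 NF-kB subunits and inhibitors 13 lay lower and 5 higher, the median being -0.05, which flips after quantile normalisation. On the low side, beside Tnip1, stood Ikbke, a kinase of the interferon pathway, at 9.68 in the control, 9.48 after astragaloside IV and 9.33 after oxymatrine, Bcl3, a nuclear IkB protein, at 12.81, 12.58 and 12.50 in that order, and the non-canonical pair Nfkb2 (-0.28) and Relb (-0.28). On the high side were Rela, the p65 subunit, at 15.33 in the control, 15.51 after astragaloside IV and 15.69 after oxymatrine and Tnfaip3, which encodes A20, at 14.89, 14.93 and 15.11 in that order. Tnip1 and Tnfaip3, whose proteins act together, thus lay on opposite sides. Toll-like receptors and adaptors had 14 lower and 7 higher of 26: Tlr4 differed by -0.29 and its partner Ly96 by -0.21, while Slc15a4, a transporter that endosomal signalling needs, differed by 0.15. Of 19 STAT and SOCS genes 12 were lower and 4 higher, and Socs3, the brake on STAT3 signalling, was at 8.28 in the control, 7.99 after astragaloside IV and 7.21 after oxymatrine, which is below the bright range. Interleukin receptor genes had 8 lower and 10 higher of 23, from Il17ra (-0.54) and Il2ra (-0.33) to Il6st (0.27), the shared gp130 chain. The Siglec and paired receptor genes, inhibitory and activating receptors of myeloid cells, were the 1 family of at least 10 members with a median above 0, at 0.02, with 10 of 17 higher and 4 lower, a direction that flips after median centring. Among MHC genes 16 of 28 were lower and 5 higher, and the class I gene H2-D1 was at 15.70, 15.65 and 15.33 in the order control, astragaloside IV, oxymatrine.

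Interferon-stimulated genes, which make up much of the antiviral response of these cells, had 40 lower (56.3%), 18 higher (25.4%) and 13 equal of 71. Among all genes 46.0% were lower and 29.7% higher. The family median of -0.02 flips under quantile and lowess scaling. Parp9, an ADP-ribosyltransferase-like protein, was at 11.33 in the control, 10.92 after astragaloside IV and 10.75 after oxymatrine, and Trim25, the ubiquitin ligase of the RIG-I pathway, at 10.75, 10.45 and 10.45 in that order. Against these, Oasl2 was at 12.04 in the control, 12.47 after astragaloside IV and 12.53 after oxymatrine, Mx2, a dynamin-like antiviral GTPase, at 10.08, 10.08 and 10.52 in that order, and Slfn9 at 9.92, 10.25 and 10.25. Promoter windows were matched for 56 of the 71. A core of the interferon-stimulated response element (a pair of GAAA separated by any pair of bases, on either strand) occurred in 30 of 56 (53.6%) and in 348 of 8725 (3.99%) promoters of all genes above background. The 30 genes with it had 20 lower and 7 higher and a median of -0.07, and the 26 without it 11 and 8 and a median of 0. This gap has no test. Of all 348 genes above background with the element, 159 were lower and 105 higher. Their median was 0, as was that of the genes without it.

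Metabolic families had more members lower than higher, against shares of 46.0% lower and 29.7% higher over all genes. Their share of lower members ran from 42.9% in amino acid transporters to 65.4% in the glycolysis set. The median of all genes, 0 in the deposited values, was 0.03 after quantile normalisation and 0.02 after lowess centring. Glycolysis enzymes and glucose transporters had 17 of 26 lower and 6 higher, with a median of -0.05 that was below 0 under each scaling, and the hexokinase genes lay apart, Hk1 at 12.62 in the control, 12.33 after astragaloside IV and 12.30 after oxymatrine and Hk3 at 9.82, 10.16 and 10.16 in that order. Glutathione and thioredoxin genes had 22 of 37 lower and 8 higher, with the sulfiredoxin gene Srxn1 at 10.79, 10.75 and 10.26 and the metallothionein gene Mt2 at 14.02, 14.26 and 14.49. Amino acid transporters had 9 lower and 7 higher of 21, and Slc7a5, the leucine transporter subunit, was at 12.18 in the control, 11.89 after astragaloside IV and 11.74 after oxymatrine. ABC transporters had 13 lower and 6 higher of 26, between Abca3 (-0.50), a lipid transporter, and Abcc3 (0.22) among bright members.

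Across the 71 families with at least 10 members above background, the median was below 0 in 42, exactly 0 in 28 and above 0 in 1. This tally depended on the scaling: 71 medians were below 0 after median centring, 17 were below and 54 above 0 after quantile normalisation, and 29 were below and 42 above 0 after lowess centring. More members were lower than higher in 62 families, more were higher in 8, and counts were even in 1. Medians of -0.1 or less were found in 3 of the 71: the histone genes, complexes II and III, and autophagy, and none was 0.1 or more. Against 46.0% of all genes, 85.5% of histone genes and 89.5% of genes of complexes II and III were lower. The families were set up with earlier results of these arrays known, and these counts are descriptions of 1 pair of arrays.

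**Figure D5:**
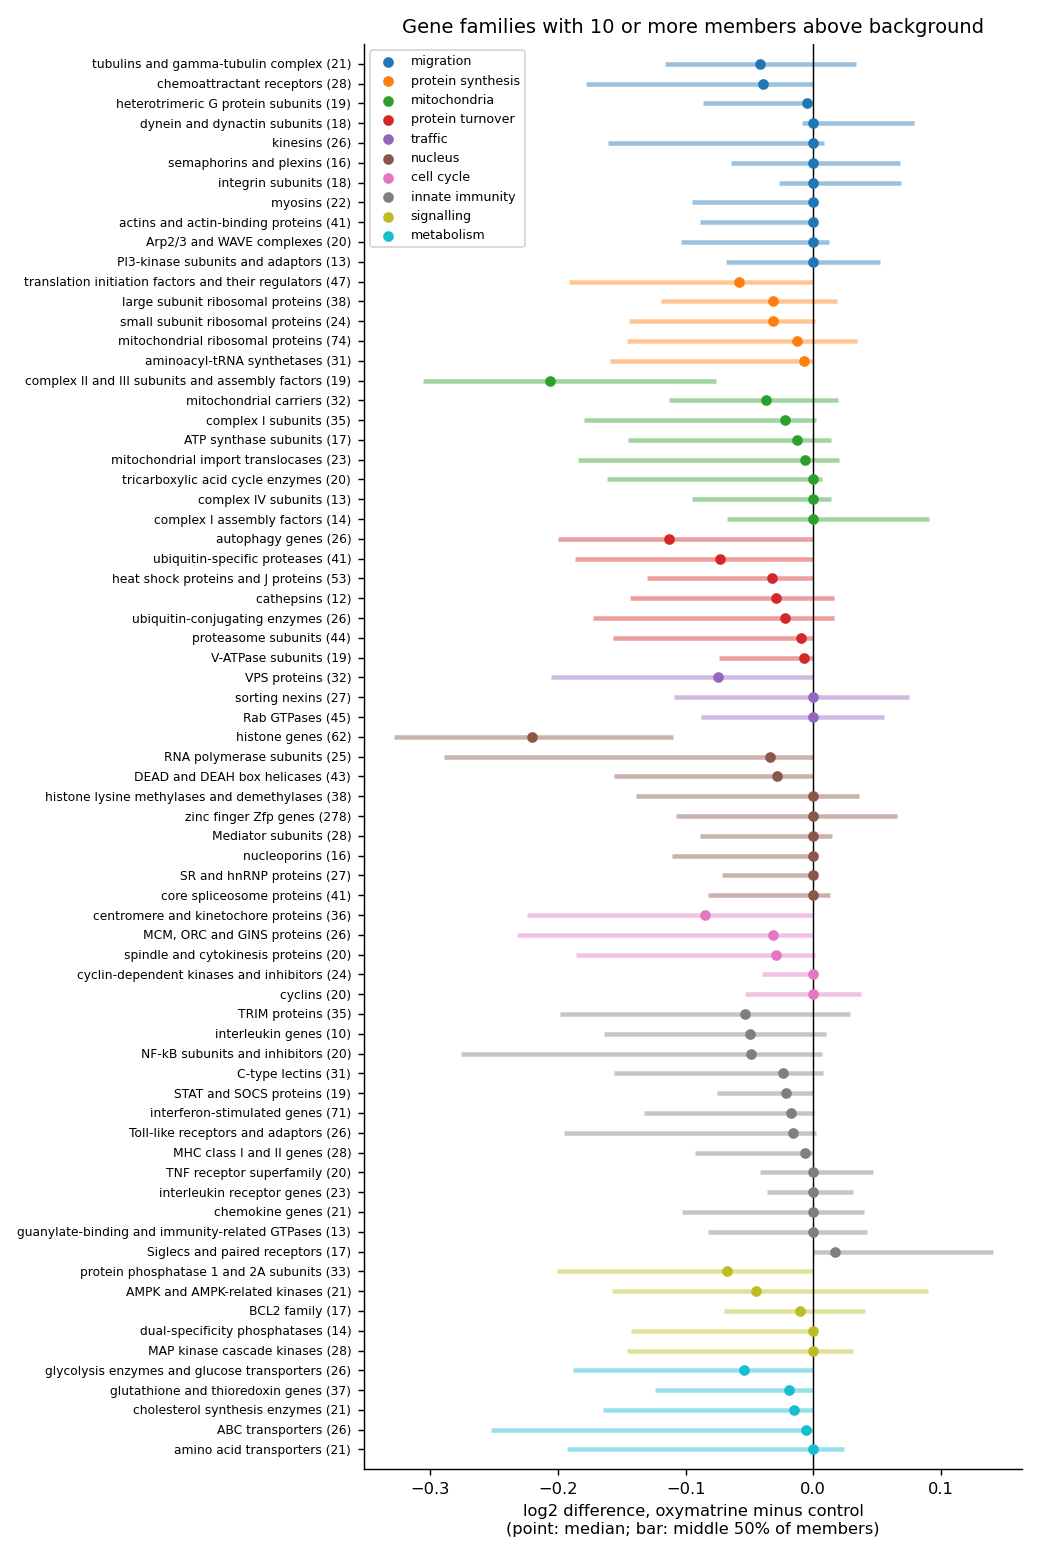
Median (point) and middle 50% (bar) of the log2 difference, oxymatrine minus control, for the 71 gene families with at least 10 members above background, coloured by role, with the number of members in brackets. The histone genes and the genes of complexes II and III lie at -0.22 and -0.21 with their bars wholly below 0, while most other medians lie between -0.1 and 0.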

How the data were processed

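RNA of 3 samples, 1 per group, was hybridised to whole-transcript arrays. The deposited values are log2 levels, which the authors computed with RMA (per the submitters' processing notes), a method of background subtraction, quantile scaling and median polish. Software, version and the build of the array design: not given in the sources used here. Base 2 was inferred from the range of 1.78 to 19.67.

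Of 28846 probe sets 19572 had 1 symbol in the platform annotation, 0 several and 9274 none. For 55 genes with several probe sets the brightest was used. Differences were subtracted and counted, with no test, since each group has 1 array and arrays have no read depth. Families were defined by symbol patterns, and some items are not reported here. Named genes are the 16 bright genes at each end (no predicted genes, numbered clones, smell receptors or small RNAs), the 3 members at each end of a family, with bright members preferred, and the migration set. The members and lists were chosen with earlier results of these data known, and the 1.15-fold size, the split of the histones by current or older names, their promoter motifs, the marker sum without Ptprc, the family tally by scaling, the limits of 3 family patterns and the count of identical members once were chosen after the values were seen. Further family members are named as examples, chosen after their values were seen. Alternatives were other scalings, level filters, sizes and members. Counting and scaling were tested on simulated data. Tables were handled in pandas 2.3.3 and numpy 2.4.6 under Python 3.11.15, lowess (fraction 0.3) came from statsmodels 0.14.6, and figures from matplotlib 3.10.9.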

Additional observations from a re-analysis of the deposited data

How the results depend on the processing

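Each comparison rests on 1 array a group, so leaving out a replicate was not possible, and no paired analysis was possible because each group has a single array. Of the 2-fold counts, 14 higher and 16 lower, the 99th percentile of receptor genes (a log2 level of 5.88) as the filter left 7 and 10, no filter gave 57 and 33, a threshold of 1.5-fold gave 139 and 214 and 3-fold gave 0 and 0. With both arrays at or above background 8 were higher. Of the bright genes 46 were 1.5-fold lower and 9 higher. Counting as bright from a mean of 8 gave 82 and 21, from 10 gave 24 and 4, a threshold of 2-fold gave 2 and 1 and a difference of at least 25% gave 360 and 108. The higher count was 5 after median centring, 18 after quantile normalisation and 14 after lowess centring. The median of bright genes, -0.0011 in the deposited values, was -0.0282 after median centring. It changed sign to 0.0334 after quantile normalisation and 0.0268 after lowess centring. The autophagy median of -0.11 was -0.14 after median centring and -0.0426 after quantile normalisation. The histone median of -0.22 was -0.25 after median centring and -0.16 with all measured members, which adds genes below background. The median of 9 peroxins reversed, from -0.08 to 0.0041, with the 5 bright members only. Beside these, 39 values of the main results and 38 of single families kept their direction and size under an alternative. Another 33 of single families moved without changing sign. Among these, the median of TRIM proteins went from -0.0531 to 0 with all measured members. The cause of these shifts was not tested, apart from thresholds and filters, which change the genes counted. The median of complexes II and III, -0.21, lay between -0.23 and -0.17 under all alternatives run. Probe sets near background and near-identical histone genes limit what single values show.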
